A study of Mus musculus with 4 samples.

Results

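The sample labelled 17 Gy was set against the sample labelled 0 Gy, each a single Illumina mouse BeadChip array of biotin-labelled total RNA. Both samples were labelled thyroid of Balb/c mice, and the time given for both was 24 h. The 17 Gy sample came from mice given radioiodine (131I), and the 0 Gy sample is the unirradiated one of the same series. The activity given, the number of mice behind a sample and whether animals were pooled are not stated in the labels. The other arrays of the series, at 0.85 and 8.5 Gy, are used only to show where the same genes stood there. The genes compared were the named genes detected, at a detection p under 0.01, on at least 1 of the 2 arrays. These were 7839 of the 16593 named genes, read by 10339 of 23978 named probes. With 1 array a side there were no replicates, so no difference has a p-value or a replicate check. Words such as higher and lower compare these 2 arrays, not the doses.

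Radioiodine is taken up by thyroid follicular cells through the sodium iodide symporter, and its beta particles deposit their energy within a short distance in the gland. The mouse thyroid lies beside brown and white fat, muscle, large vessels and the salivary glands of the neck, and a dissected lobe can hold any of them. Ionizing radiation is known to activate p53, whose targets arrest the cell cycle, and dying cells draw in monocytes that present antigen on MHC class II. Fewer cells of a type and less RNA per cell cannot be told apart in such bulk samples.

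The genes that define follicular cells were mostly at background on both arrays. Probes existed for 16 thyrocyte genes, of which 5 were compared and 0 were 2-fold apart. Tg, the precursor of thyroid hormone, had intensities of 86 at 17 Gy and 84 at 0 Gy, beside mean background intensities of 88.55 at 17 Gy and 86.01 at 0 Gy. Slc5a5, the iodide symporter itself, read 82 at 17 Gy and 87 at 0 Gy, and Pax8, a transcription factor of follicular cells, 90 at 17 Gy and 82 at 0 Gy. Tshr, the thyrotropin receptor, was detected on both arrays, with 122 at 17 Gy and 137 at 0 Gy, and its log2 difference was -0.53 at this probe and -0.07 at its other one. Probes of fat and of energy metabolism genes were among the brightest on both arrays, although intensities of different probes do not rank transcripts. Acly, the enzyme that makes acetyl-CoA for fatty acid synthesis, read 31656 at 17 Gy and 28685 at 0 Gy, and Lpl, lipoprotein lipase, 27327 at 17 Gy and 27689 at 0 Gy. The comparison is described below by the genes that were detected.

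Most genes read alike on the 2 arrays. Intensities below are raw bead intensities, and a number in parentheses after a gene's pair of intensities is its log2 difference. The log2 difference, 17 Gy minus 0 Gy on background-corrected and quantile-normalized values, had an SD of 0.403 across the genes compared, and 86.2% of them lay within 0.5. The median was 0.00, and Pearson's r across these genes, which are not independent replicates, was 0.982. At least 2-fold higher at 17 Gy were 69 genes (0.88% of those compared) and at least 2-fold lower 36 (0.459%). Counts of list members 2-fold apart given below stand beside these shares. The authors' normalized values gave 17 higher and 2 lower for the same genes, values without background correction 14 and 2, and an offset of 50 gave 19 and 4. Differences over 4-fold were found for 15 genes, all of them higher at 17 Gy. Of the genes detected on a single array, 611 were detected at 17 Gy alone and 311 at 0 Gy alone. The 17 Gy array had a slightly higher background, and it detected 9913 of the named probes, against 9411 on the 0 Gy array.

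Low brightness marked most of the genes that stood apart. Of the 69 higher genes, 42 had a raw intensity under 200 at 17 Gy, and 42 were detected at 17 Gy alone. Of the 36 lower genes, 28 had an intensity under 200 at 0 Gy, and 22 were detected at 0 Gy alone. In place of replicates, genes with 2 detected probes gave a scale for the measurement error on these arrays. Over 1882 such genes the SD of a single probe's log2 difference, taken from the disagreement between the 2 probes, was 0.292. It was 0.362 where the dimmer probe was under 150 and 0.175 where it was over 500, so a given difference is better measured in bright genes. This SD comes from probes on the same 2 arrays and holds no spread between animals or samples. Of 16 genes 2-fold apart that had a second detected probe, the second probe differed in the same direction in 16 and by 2-fold in 4. Some of these second probes were detected on 1 array only and so entered through their higher array. Undetected second probes were left out, so this count is no check of direction. Where a gene was detected on 1 array only, its fold is written as "at least" and computed against the other array's own value or its dimmest detected level, whichever was higher. On that array the gene was not well above background, so a log2 difference printed for such a gene or probe is the fitted one and no bound. At the detection threshold the direction went with the array that lay at it. The 72 probes just inside, with a detection p of 0.008805 and an intensity of 103 on the 0 Gy array, had log2 differences from -0.90 to -0.17. The 154 probes just outside, at a p of 0.01019 and the same intensity on the 17 Gy array, had -0.13 to 0.75. The 2 sets thus lie at the edge of different arrays, and their contrast does not show an effect of the threshold.

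**Figure D1:**
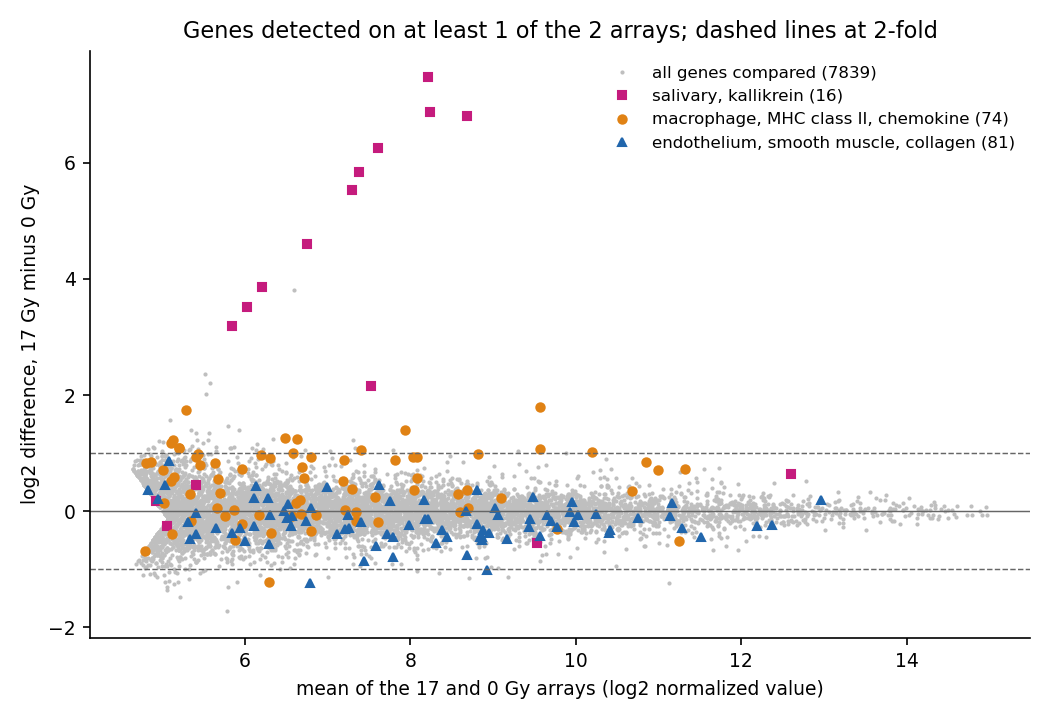
The log2 difference of 17 Gy minus 0 Gy (vertical axis) against the mean normalized log2 value of both arrays (horizontal axis) for all 7839 genes compared, with members of 3 groups of lists coloured. The salivary and kallikrein genes form a rising line up to 7.47, most other genes lie between the dashed lines at 2-fold, and the spread narrows toward bright genes.

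The largest differences belonged to secretory proteins of the salivary and lacrimal glands. Of the salivary list, 31 genes had a probe, 10 were compared and 8 of these were at least 2-fold higher at 17 Gy. The share over all genes compared was 0.88%. Apart from Scgb2b27 and Wfdc12, these 8 were detected at 17 Gy alone and so entered through their higher array. The 6 most extreme genes of the whole comparison were all on this list. Apart from Lyz1, Amy1 and Wfdc12, the compared transcripts were at or near background on the 0 Gy array and on the 0.85 and 8.5 Gy arrays. The promoters of 2 of the secretoglobin genes, 250 bases before the gene's start, are shown because these copies of one gene family differed alike. Both are on the minus strand of chromosome 7 (GRCm38.p6, sequences from RefSeq), Scgb2b26 at chr7:33944986-33945235 and Scgb2b27 at chr7:34013943-34014192. Capitals mark the longest run of letters, 29 bases, that the 2 promoters share.
Scgb2b26: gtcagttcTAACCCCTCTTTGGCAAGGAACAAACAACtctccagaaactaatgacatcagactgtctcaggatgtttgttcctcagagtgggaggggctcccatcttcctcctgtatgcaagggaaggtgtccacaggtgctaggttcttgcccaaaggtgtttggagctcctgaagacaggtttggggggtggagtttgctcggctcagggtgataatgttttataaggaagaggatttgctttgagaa
Scgb2b27: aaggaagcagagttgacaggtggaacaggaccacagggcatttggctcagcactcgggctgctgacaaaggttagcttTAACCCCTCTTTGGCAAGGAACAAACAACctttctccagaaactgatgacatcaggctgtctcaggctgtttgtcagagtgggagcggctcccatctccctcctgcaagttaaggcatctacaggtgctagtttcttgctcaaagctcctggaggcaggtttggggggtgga

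Secretoglobins are small dimeric proteins secreted by glandular epithelium, and the mouse androgen-binding protein genes of this family pair an Scgb1b with an Scgb2b chain. Scgb1b27 had an intensity of 3482 at 17 Gy and 89 at 0 Gy, and 96 and 98 at 0.85 and 8.5 Gy. It was at least 112-fold higher at 17 Gy. Scgb2b27, whose gene is the next protein-coding gene to Scgb1b27, read 3858 at 17 Gy and 106 at 0 Gy and was detected on both arrays, a difference of 6.80 on the log2 scale (111-fold). Scgb2b26 read 2941 at 17 Gy and 96 at 0 Gy, at least 92.7-fold higher. Each of these high readings came from a single probe. The 2 other probes of Scgb2b26 read 87 and 84 at 17 Gy and 79 and 80 at 0 Gy, and the other probe of Scgb1b27 read 99 at 17 Gy and 86 at 0 Gy. None of these was detected, and the copies of this family are similar enough that the member behind a signal is uncertain. Scgb2b24, Scgb2b2 and Scgb1b2 were not detected on either array.

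The other gland products came from unrelated families on other chromosomes. Prol1, a proline-rich protein of lacrimal and salivary glands, read 1632 at 17 Gy and 89 at 0 Gy (at least 48.1-fold). Its other probe read 1264 at 17 Gy and 87 at 0 Gy, a fitted log2 difference of 5.91 beside 6.25 at the first, both against a 0 Gy reading at background. Pip, the prolactin-induced protein of saliva and tears, read 1241 at 17 Gy and 88 at 0 Gy (at least 35.6-fold). Mucl2, a mucin-like protein, read 1065 at 17 Gy and 90 at 0 Gy (at least 30.4-fold). Smgc, a mucin-type glycoprotein of the developing submandibular gland, read 340 at 17 Gy and 81 at 0 Gy (at least 8.02-fold), with 132 at 17 Gy and 86 at 0 Gy at another probe. Wfdc12, a secreted protease inhibitor, was detected on both arrays, with 440 at 17 Gy and 149 at 0 Gy, a log2 difference of 2.15. Not every gland product followed. Lyz1, a lysozyme of secretory and myeloid cells, was bright on both arrays, with 6717 at 17 Gy and 4288 at 0 Gy (0.65). Amy1, salivary and liver amylase, read 645 at 17 Gy and 875 at 0 Gy (-0.55).

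Many abundant products of the submandibular and parotid glands were at background on both arrays. Egf, a growth factor of submandibular granular ducts, read 97 at 17 Gy and 91 at 0 Gy. Bpifa2, a parotid secretory protein, read 90 at 17 Gy and 87 at 0 Gy. Car6, the secreted carbonic anhydrase, read 83 at 17 Gy and 80 at 0 Gy, and Lpo, lactoperoxidase, 94 at 17 Gy and 87 at 0 Gy. The demilune and parotid protein genes Dcpp1, Dcpp2 and Dcpp3 read 93, 99 and 86 at 17 Gy, against 86, 90 and 83 at 0 Gy. Summed over the 31 salivary genes with a probe, intensity was 24223 at 17 Gy and 7736 at 0 Gy. The median log2 difference was 5.70 over the 10 genes compared and 0.13 over all 31, most of which were at background.

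Genes of the tissue kallikrein cluster, serine proteases secreted by salivary ducts, gave the next group. Of 20 kallikrein genes with a probe, 6 were compared and 3 were 2-fold higher at 17 Gy, against 0.88% of all genes compared. Each of the 3 was detected at 17 Gy alone and so entered through its higher array. Klk1, the kinin-releasing kallikrein, read 571 at 17 Gy and 88 at 0 Gy (at least 15.1-fold). Klk1b5, the neighbouring gene of Klk1, read 281 at 17 Gy and 81 at 0 Gy (at least 6.25-fold), and Klk1b27 read 241 at 17 Gy and 80 at 0 Gy (at least 4.94-fold). The second probes of Klk1b5 and Klk1b27 read 85 and 94 at 17 Gy, against 89 and 77 at 0 Gy, and were not detected. The genes of this cluster are close copies of each other, and which member a probe reads was not checked. Klk1b22 read 104 at 17 Gy and 97 at 0 Gy, and Klk8, which is also made in brain and skin, 121 at 17 Gy and 104 at 0 Gy (0.45). Without the detection filter the median over all 20 was 0.01.

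The major urinary proteins, pheromone carriers of liver and of secretory glands, differed by member. Mup5 read 415 at 17 Gy and 94 at 0 Gy (at least 10.3-fold), with 227 at 17 Gy and 89 at 0 Gy at another probe (2.84). Its neighbour Mup20 was dim, with 142 at 17 Gy and 103 at 0 Gy (1.03). Mup2 and Mup6 were detected on both arrays and were only moderately higher at their brightest probes. Mup2 read 3624 at 17 Gy and 2544 at 0 Gy (0.51), but 215 at 17 Gy and 196 at 0 Gy at another detected probe (0.09). Mup6 read 1564 at 17 Gy and 938 at 0 Gy (0.71). Many genes of this family are close copies of each other, and which member a probe reads was not checked.

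**Figure D2:**
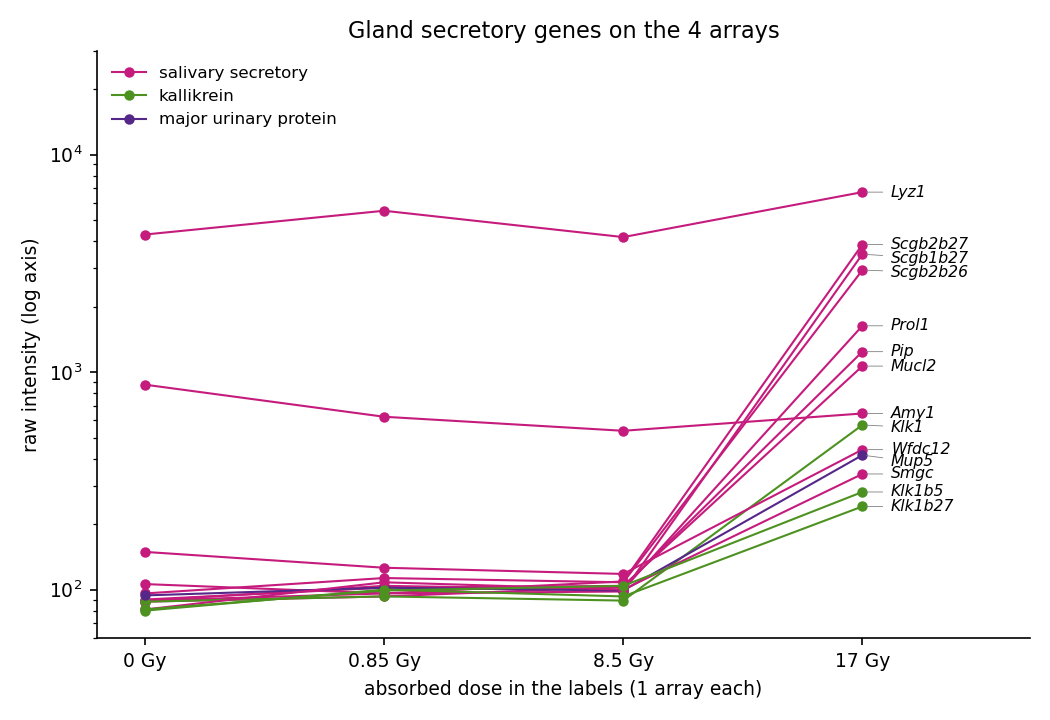
Raw intensity on a log axis for the compared salivary genes, 3 kallikrein genes and Mup5 on each of the 4 arrays, in order of the labelled dose. All but Lyz1 and Amy1 lie between 80 and 149 on the 0, 0.85 and 8.5 Gy arrays and between 241 and 3858 on the 17 Gy array.

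Genes that mark the secretory cells themselves were looked at beside these products. Of 31 epithelial genes with a probe, 6 were compared and none was 2-fold apart in either direction. Krt8, a keratin of simple epithelia, was detected at 0 Gy alone and read 95 at 17 Gy and 109 at 0 Gy (-0.81, at least 1.31-fold lower). Its partner Krt18 read 87 at 17 Gy and 89 at 0 Gy, and Cdh1, the epithelial cadherin, 96 at 17 Gy and 99 at 0 Gy, and neither was detected. Of 25 genes of the acinar secretory machinery, 9 were compared and again none was 2-fold apart. Aqp5, the water channel of acinar cells, read 101 at 17 Gy and 90 at 0 Gy, Bhlha15, a transcription factor of secretory cells, 88 at 17 Gy and 87 at 0 Gy, and Pigr, the immunoglobulin transporter, 91 at 17 Gy and 82 at 0 Gy, and none of these 3 was detected on either array. Slc12a2, the chloride cotransporter of secretory epithelium and of other cells, read 744 at 17 Gy and 814 at 0 Gy (-0.22). Over all genes compared, 0.88% were 2-fold higher and 0.459% 2-fold lower, so counts of 0 among 6 and 9 genes are near that background and say nothing about either list. How much gland tissue either sample held was not tested.

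A few skeletal muscle genes were slightly above background at 17 Gy. Of 35 muscle genes with a probe, 11 were compared and 6 were 2-fold higher, against 0.88% of all genes compared. Each of the 6 was detected at 17 Gy alone and so entered through its higher array. The median was 1.07 over the 11, 0.19 with no detection filter and 0.13 over the genes detected on both arrays. Acta1, skeletal actin, read 172 at 17 Gy and 84 at 0 Gy (at least 2.94-fold), and Atp2a1, the calcium pump of fast fibres, 171 at 17 Gy and 89 at 0 Gy (at least 2.91-fold). On the 8.5 Gy array the same probes read 23880 and 16859. Ckm, muscle creatine kinase, read 91 at 17 Gy and 79 at 0 Gy, and Mb, myoglobin, was lower at 17 Gy, with 191 at 17 Gy and 259 at 0 Gy (-0.78).

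Genes of antigen presentation and of macrophages formed a broader, smaller difference. The MHC class II list had 15 compared genes of 29 with a probe, and 11 of the 15 were higher by any amount, against 49.5% of all genes compared. The median log2 difference was 0.72, where that of all genes was 0.00, and 2 members passed 2-fold. The 17 Gy array was the highest of the 4 in 11 of the 15 genes, against 25.6% of all genes compared. Because some dim genes entered through their higher array, the median was also taken without the detection filter, where it was 0.09, and over genes detected on both arrays, where it was 0.713.

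MHC class II molecules display peptides from ingested proteins to CD4 T cells. H2-Eb1, a beta chain, read 1611 at 17 Gy and 794 at 0 Gy (1.02). H2-Ab1, the other classical beta chain, read 2293 at 17 Gy and 1256 at 0 Gy (0.85), and its 2 other detected probes gave 1.0 and 0.85. H2-Ea, an alpha chain, read 2962 at 17 Gy and 1812 at 0 Gy (0.72). Cd74, the invariant chain that guides these molecules through the cell, read 2434 at 17 Gy and 1443 at 0 Gy (0.71), and 0.82 at its second probe. H2-DMa and H2-DMb1, which load the peptide, read 414 and 360 at 17 Gy, against 241 and 220 at 0 Gy (0.93 and 0.88). All of these bright genes lay in the same direction, and every detected probe of H2-Ab1 and Cd74 did too. The probe of H2-Aa, the classical alpha chain, was not detected, with 99 at 17 Gy and 94 at 0 Gy. Ciita, the transactivator that switches on these genes, was dim and close on both arrays, with 116 at 17 Gy and 104 at 0 Gy (0.29), and Irf8, a transcription factor of monocytes and dendritic cells, read 125 at 17 Gy and 93 at 0 Gy (1.09, at least 1.52-fold). Ctss, which cuts the invariant chain, and Rfxap, part of the complex that binds class II promoters, were the 2 lowest of the compared members.

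MHC class II promoters are bound together by RFX, CREB and NF-Y proteins, the last at the Y box, an inverted CCAAT element. The core TGATTGG was searched on both strands of the 250 bases before each gene's start. It was found in 7.23% of the 32851 promoters of the table. Of the 15 compared class II genes, 7 had a promoter in the table and 3 of these held the core, namely Irf8, H2-Eb1 and H2-DMb1. The promoters of the 2 class II chain genes are shown, with the core in capitals. Both are on the plus strand of chromosome 17 (GRCm38.p6), H2-Eb1 at chr17:34305617-34305866 and H2-DMb1 at chr17:34152941-34153190. A match describes these letters only.
H2-Eb1: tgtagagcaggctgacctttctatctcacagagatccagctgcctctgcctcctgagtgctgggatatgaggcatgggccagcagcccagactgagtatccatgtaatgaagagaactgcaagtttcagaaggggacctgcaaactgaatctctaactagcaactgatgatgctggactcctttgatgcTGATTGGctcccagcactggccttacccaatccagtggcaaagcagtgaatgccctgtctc
H2-DMb1: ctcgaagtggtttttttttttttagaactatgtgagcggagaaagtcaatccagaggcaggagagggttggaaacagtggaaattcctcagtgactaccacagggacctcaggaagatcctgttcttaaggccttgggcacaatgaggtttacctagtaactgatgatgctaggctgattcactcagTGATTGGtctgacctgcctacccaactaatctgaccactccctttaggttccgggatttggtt

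Of 44 macrophage genes compared, of 56 with a probe, 33 were higher by any amount at 17 Gy, against 49.5% of all genes compared. At 2-fold, 5 were higher and 1 lower, against 0.88% and 0.459% of all genes. The median of the 44 was 0.45, with 0.22 when no detection filter was used. The 17 Gy array was the highest of the 4 in 28, against 25.6% of all genes. Lgals3, galectin-3, a lectin secreted by activated macrophages and by other cells, read 1371 at 17 Gy and 436 at 0 Gy, a log2 difference of 1.79 (3.46-fold), on the 0.85 and 8.5 Gy arrays 892 and 388. Among genes with a mean log2 value of at least 9, of which there were 1994 with an SD of 0.226, it differed most. Lyz2, macrophage lysozyme, read 1088 at 17 Gy and 536 at 0 Gy (1.07), but 767 at 17 Gy and 700 at 0 Gy at another probe (0.07), so its 2 probes disagreed. The first of these probes read 1431 at 0.85 Gy. Fcgr4, an activating Fc receptor, read 304 at 17 Gy and 176 at 0 Gy (1.05), and Adgre1, the F4/80 antigen, 241 at 17 Gy and 180 at 0 Gy (0.52), with 0.82 at another probe. Vsig4, a complement receptor of resident macrophages, read 125 at 17 Gy and 90 at 0 Gy (1.23, at least 1.52-fold). Cd209d, a lectin related to DC-SIGN, was lower, with 123 at 17 Gy and 178 at 0 Gy (-1.21).

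Of 20 complement genes with a probe, 13 were compared, with a median of 0.14, and 1 was 2-fold higher. The genes of C1q, which macrophages make, and C4b lay highest. C1qa, C1qb and C1qc, the 3 chains of C1q, read 204, 571 and 508 at 17 Gy, against 132, 338 and 304 at 0 Gy, with log2 differences of 1.01, 0.84 and 0.84. C4b, which C1 cleaves, read 1048 at 17 Gy and 611 at 0 Gy (0.80). Other early components did not share this. C2, which acts with C4, read 804 at 17 Gy and 698 at 0 Gy (0.15). C1s1, a protease of the C1 complex, was detected at 0 Gy alone, with 101 at 17 Gy and 107 at 0 Gy (-0.43, at least 1.23-fold lower), and C1ra was not detected. Cfb, of the alternative pathway, read 222 at 17 Gy and 198 at 0 Gy (0.14), and Cd55, which breaks down complement convertases, was the lowest compared gene, with 140 at 17 Gy and 159 at 0 Gy (-0.49).

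Chemokine ligand genes were dim, and 6 of 19 compared were 2-fold higher at 17 Gy, against 0.88% of all genes compared. Among the 6, Ccl7, Ccl12 and Ccl4 were detected at 17 Gy alone and so entered through their higher array. Ccl8, a monocyte attractant, had the brightest probe of the 6. It read 446 at 17 Gy and 206 at 0 Gy (1.40), beside 197 and 137 at 0.85 and 8.5 Gy. Ccl7, of the same group, read 142 at 17 Gy and 87 at 0 Gy (1.75, at least 2.04-fold), and 137 at 0.85 Gy. Its relative Ccl12, which neighbours Ccl8, read 125 at 17 Gy and 93 at 0 Gy (1.09, at least 1.52-fold), with 0.78 at another probe. Ccl12 was higher still at 0.85 Gy, with 203. Ccl4 was too, with 144 at 0.85 Gy, beside 123 at 17 Gy and 90 at 0 Gy. Ccl5, a T cell and monocyte attractant, read 207 at 17 Gy and 123 at 0 Gy (1.27). Ccl27a, a skin T cell attractant, read 220 at 17 Gy and 129 at 0 Gy (1.25), but 0.11 at another probe. Ccl9, made by macrophages, read 668 at 17 Gy and 361 at 0 Gy (0.98), just inside 2-fold. The constitutive stromal ligand Cxcl12 went the other way, with 1923 at 17 Gy and 2550 at 0 Gy (-0.51), with -0.95 and -0.21 at its other detected probes. Ccl2, the main monocyte attractant, was not detected, with 94 at 17 Gy and 83 at 0 Gy. The median of the list was 0.52, or 0.03 with no detection filter.

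The MHC class I and interferon lists had smaller medians. The median of 21 class I genes was 0.25, with 17 higher by any amount, against 49.5% of all genes compared. The 1 that was 2-fold higher, against 0.88% of all genes, was the peptide-loading chaperone Tapbp. It read 155 at 17 Gy and 107 at 0 Gy (1.11, with 0.43 at an undetected probe), beside 188 at 0.85 Gy. B2m, the light chain of class I, read 11642 at 17 Gy and 10080 at 0 Gy (0.23), and H2-K1, a heavy chain, 1113 at 17 Gy and 912 at 0 Gy (0.25). H2-D1 was level, with 462 at 17 Gy and 448 at 0 Gy (-0.03). The median of 31 interferon response genes was 0.00, with no member 2-fold apart. Igtp, an interferon-inducible GTPase, read 968 at 17 Gy and 575 at 0 Gy (0.76), while Irf7, the main amplifier of type I interferon, read 117 at 17 Gy and 134 at 0 Gy (-0.61) and Isg15, a ubiquitin-like interferon product, 149 at 17 Gy and 150 at 0 Gy (-0.16).

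Markers of other leukocytes were few and mostly dim. S100a8 and S100a9, the calprotectin chains of neutrophils, read 303 and 168 at 17 Gy, against 164 and 123 at 0 Gy (1.23 and 0.78), but 483 and 324 at 0.85 Gy. The neutrophil granule genes Camp and Ltf were not detected, and Mmp9, a neutrophil gelatinase, read 120 at 17 Gy and 140 at 0 Gy (-0.66). The median of the 8 neutrophil genes was 0.44, and over those detected on both arrays it was -0.061. The T cell gene Cd3g read 110 at 17 Gy and 87 at 0 Gy (0.85, at least 1.09-fold higher) and was detected at 17 Gy alone. Cd3e was not detected, with 96 at 17 Gy and 85 at 0 Gy. Prf1, perforin, was lower, with 629 at 17 Gy and 957 at 0 Gy (-0.75). Its other probe was not detected, with 85 on both arrays. The B cell genes Cd79a and Ms4a1 were at background. These differences lie on the array on which the salivary list summed to 24223, against 7736 at 0 Gy, and whether gland or lymphoid tissue contributed to them was not tested.

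**Figure D3:**
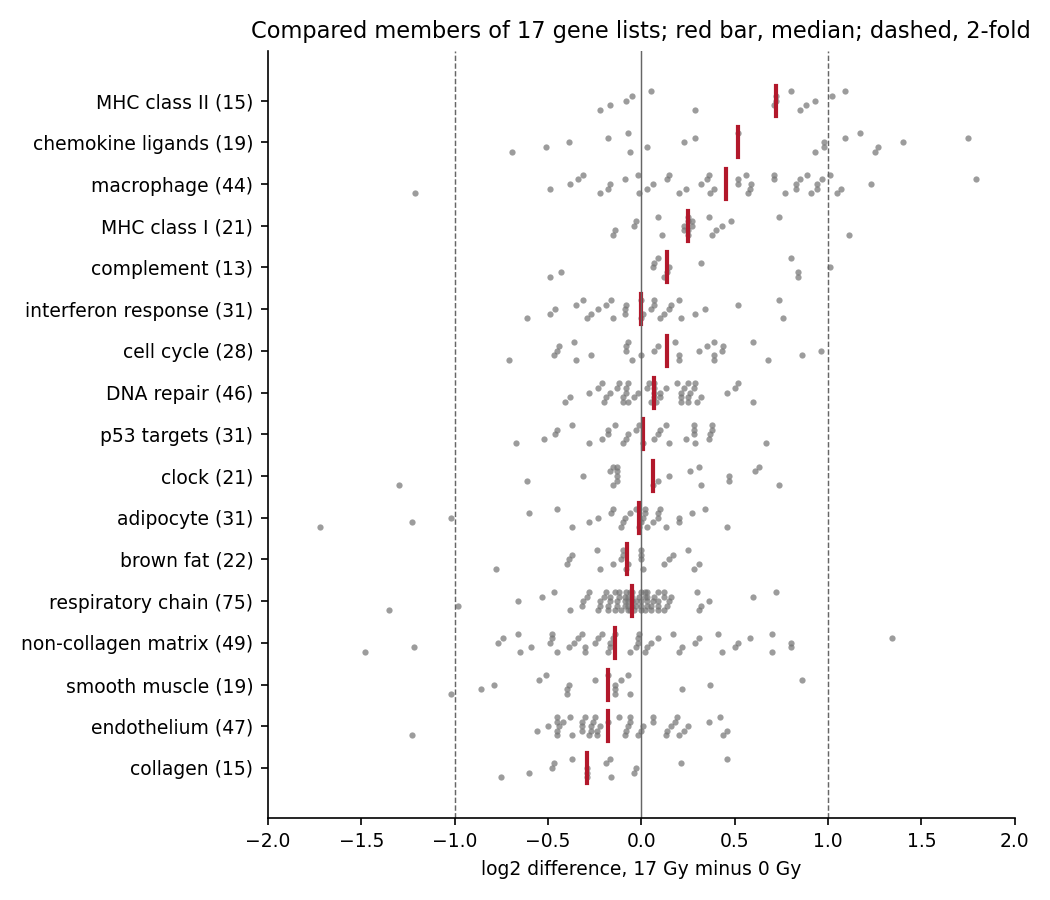
Log2 differences, 17 Gy minus 0 Gy, of the compared members (points) of 17 gene lists, with the number compared in parentheses and the median as a red bar. Medians run from 0.72 for MHC class II to -0.29 for collagen, and most points lie between the dashed lines at 2-fold.

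Genes of vessels and collagen genes lay mostly on the lower side at 17 Gy. Of 47 endothelial genes compared, 31 were lower by any amount, against 49.9% of all genes compared, with a median of -0.18. The 1 that was 2-fold lower compares with 0.459% of all genes. Cdh5, the cadherin of endothelial junctions, read 142 at 17 Gy and 222 at 0 Gy (-1.23), beside 240 and 206 at 0.85 and 8.5 Gy. Pecam1, an adhesion molecule of the same junctions, read 444 at 17 Gy and 548 at 0 Gy (-0.45), and -0.38 at its second probe. Vwf, the clotting carrier stored in endothelium, read 354 at 17 Gy and 437 at 0 Gy (-0.45), and Plvap, which forms the diaphragms of capillary openings, 444 at 17 Gy and 561 at 0 Gy (-0.50). Tek, the angiopoietin receptor, was level, with 458 at 17 Gy and 436 at 0 Gy (0.00), and the main VEGF receptor gene Kdr was not detected, with 94 at 17 Gy and 91 at 0 Gy. The 17 Gy array was the lowest of the 4 in 14 of the 47 genes, against 20.0% of all genes compared. Single endothelial differences other than that of Cdh5 lay between -0.56 and 0.46, beside a probe SD of 0.292.

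Mural cells and collagens were similar in direction. Of 19 smooth muscle and pericyte genes compared, 16 were lower by any amount, again beside 49.9% of all genes, and 1 by 2-fold, with a median of -0.18. Sncg, gamma-synuclein, which is also made by adipocytes and neurons, read 394 at 17 Gy and 686 at 0 Gy (-1.02), and -1.44 at its second probe. Notch3, the Notch receptor of mural cells, read 198 at 17 Gy and 282 at 0 Gy (-0.86), and Rgs5, a pericyte regulator of G proteins, 236 at 17 Gy and 334 at 0 Gy (-0.79). Acta2, smooth muscle actin, read 3794 at 17 Gy and 4383 at 0 Gy (-0.25), and its 3 other probes gave -0.08, -0.19 and -0.35. Tagln, transgelin, went the other way, with 117 at 17 Gy and 93 at 0 Gy (0.86, at least 1.30-fold). On normalized values, the 0 Gy array was the highest of all arrays for Sncg, Notch3 and Acta2. The 17 Gy array was the lowest for Notch3 and Rgs5, but not for Sncg, which read 427 and 299 at 0.85 and 8.5 Gy.

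Of 15 collagen genes compared, 13 were lower by any amount, where 49.9% of all genes were, and none by 2-fold, with a median of -0.29. Col3a1, a fibrillar collagen of loose tissue, read 373 at 17 Gy and 545 at 0 Gy (-0.75), and -0.88 at its second probe, but it was lower still at 0.85 and 8.5 Gy, at 218 and 265. Col5a1 read 527 at 17 Gy and 676 at 0 Gy (-0.48), and the basement membrane chains Col4a1 and Col4a2 read 2128 and 1173 at 17 Gy, against 2419 and 1396 at 0 Gy (-0.29 and -0.37). In 13 of the 15 genes the 0 Gy array was the highest of the 4, against 26.4% of all genes compared, while the 17 Gy array was the lowest in 1. Outside the collagens, the list of matrix genes had a median of -0.144, or -0.028 with no detection filter. The proteoglycan gene Lum read 675 at 17 Gy and 930 at 0 Gy (-0.59) and Dcn, decorin, 6916 at 17 Gy and 6705 at 0 Gy (0.03). The stromelysin gene Mmp3 read 207 at 17 Gy and 284 at 0 Gy (-0.77), with -1.0 and -0.45 at its other probes. Mmp13, a protease of the same family, went the other way, with 146 at 17 Gy and 98 at 0 Gy (1.34, at least 2.15-fold). Its other probes gave -0.46 and 0.16 and were not detected. Timp1, an inhibitor of these proteases, read 120 at 17 Gy and 96 at 0 Gy (0.80, at least 1.38-fold).

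**Figure D4:**
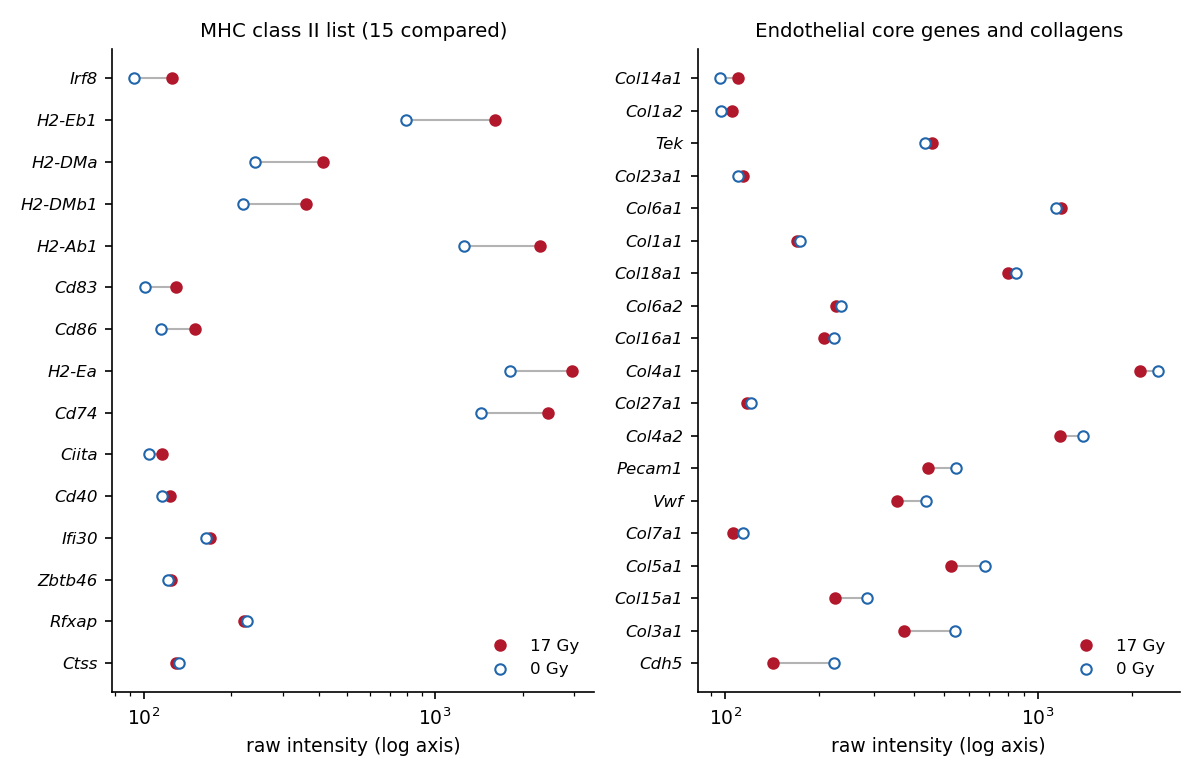
Raw intensity on a log axis at 17 Gy (filled red) and 0 Gy (open blue) for the 15 compared MHC class II genes (left) and for endothelial core genes with the compared collagens (right), each sorted by log2 difference. The 17 Gy points lie to the right for the bright class II genes, as for H2-Eb1 at 1611 (17 Gy) and 794 (0 Gy), and to the left for most vascular and collagen genes.

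Genes of fat, bright on both arrays, were largely level. The median of 31 adipocyte genes was -0.01. Adipoq, adiponectin, read 9512 at 17 Gy and 9339 at 0 Gy (0.06), Lep, leptin, 1463 at 17 Gy and 1209 at 0 Gy (0.20), and Pparg, the master regulator of fat cells, 2381 at 17 Gy and 2511 at 0 Gy (-0.16). The brown fat gene Ucp1, the uncoupling protein, read 9249 at 17 Gy and 8411 at 0 Gy (0.12), Cidea, a lipid droplet protein, 11842 at 17 Gy and 14223 at 0 Gy (-0.22), and Elovl3, a fatty acid elongase of cold-exposed brown fat, 424 at 17 Gy and 642 at 0 Gy (-0.78). The 3 adipocyte genes that were 2-fold lower were Acvr1c, Aoc3 and Sncg. Acvr1c, an activin receptor of fat, read 102 at 17 Gy and 161 at 0 Gy (-1.72, at least 3.10-fold lower). Aoc3, an amine oxidase on the surface of adipocytes and vascular smooth muscle, was 2-fold lower at a bright probe. It read 1423 at 17 Gy and 2953 at 0 Gy (-1.23, 2.35-fold lower), and at 0.85 and 8.5 Gy it read 1461 and 1348, so the 0 Gy array was the high one. The respiratory chain had a median of -0.05 over 75 genes. Its outermost genes lay on both sides, and 1 of them, Atp5k, was 2-fold lower. Atp5k, an ATP synthase subunit, read 89 at 17 Gy and 119 at 0 Gy (-1.35, at least 1.66-fold lower) and was detected at 0 Gy alone. Of the genes detected on both arrays, Cox7a2, a subunit of complex IV, lay lowest, with 429 at 17 Gy and 732 at 0 Gy (-0.98). Uqcrb, of complex III, lay highest, with 3381 at 17 Gy and 2089 at 0 Gy (0.72).

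Clock genes differed in a split way. Of 21 compared, 11 were higher and 10 lower by any amount, with a median of 0.06 and 1 gene 2-fold lower. Of the 3 D-box activators, Dbp and Tef were higher at 17 Gy and Hlf was not detected, with 85 at 17 Gy and 83 at 0 Gy. Dbp read 3890 at 17 Gy and 2316 at 0 Gy (0.74), but 5927 and 5559 at 0.85 and 8.5 Gy, and Tef read 463 at 17 Gy and 340 at 0 Gy (0.47). Nfil3, the repressor that competes for the same element, read 335 at 17 Gy and 453 at 0 Gy (-0.61). Other genes of the list that were higher include Per3, with 186 at 17 Gy and 139 at 0 Gy (0.63). Per2 read 618 at 17 Gy and 446 at 0 Gy (0.47, with 0.35 at another probe). Usp2, a deubiquitinase under clock control, read 778 at 17 Gy and 515 at 0 Gy (0.61, with -0.13 at a dim probe). Whether D boxes had a part in these differences was not tested. Arntl, which encodes the clock protein BMAL1, read 90 at 17 Gy and 118 at 0 Gy (-1.30, at least 1.62-fold lower), and was not well above background at 17 Gy. Per1, Clock, Nr1d1, Nr1d2 and Rora were close to level, at -0.15, -0.13, 0.15, 0.09 and 0.06. Most of these differences are under 3 times the probe SD of 0.292. That SD was 0.175 where the dimmer probe was over 500, and it holds no spread between samples. The labels do not state the hour at which the tissue was taken.

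The D-box sequence TTATGTAA was searched on both strands of the same 250-base windows and was found in 0.819% of all promoters. Of the 21 compared clock genes, 18 had a promoter in the table, and 2 of these, Per3 and Timeless, held it. Timeless read 113 at 17 Gy and 112 at 0 Gy (-0.13). The Per3 promoter, on the minus strand of chromosome 4 at chr4:151044666-151044915 (GRCm38.p6), is shown because it holds 2 copies, in capitals.
Per3: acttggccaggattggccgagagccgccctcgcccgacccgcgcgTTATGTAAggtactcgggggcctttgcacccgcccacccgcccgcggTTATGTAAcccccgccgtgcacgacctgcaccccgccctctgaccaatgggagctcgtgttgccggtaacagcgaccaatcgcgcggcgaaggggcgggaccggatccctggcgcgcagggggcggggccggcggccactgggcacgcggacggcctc

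**Figure D5:**
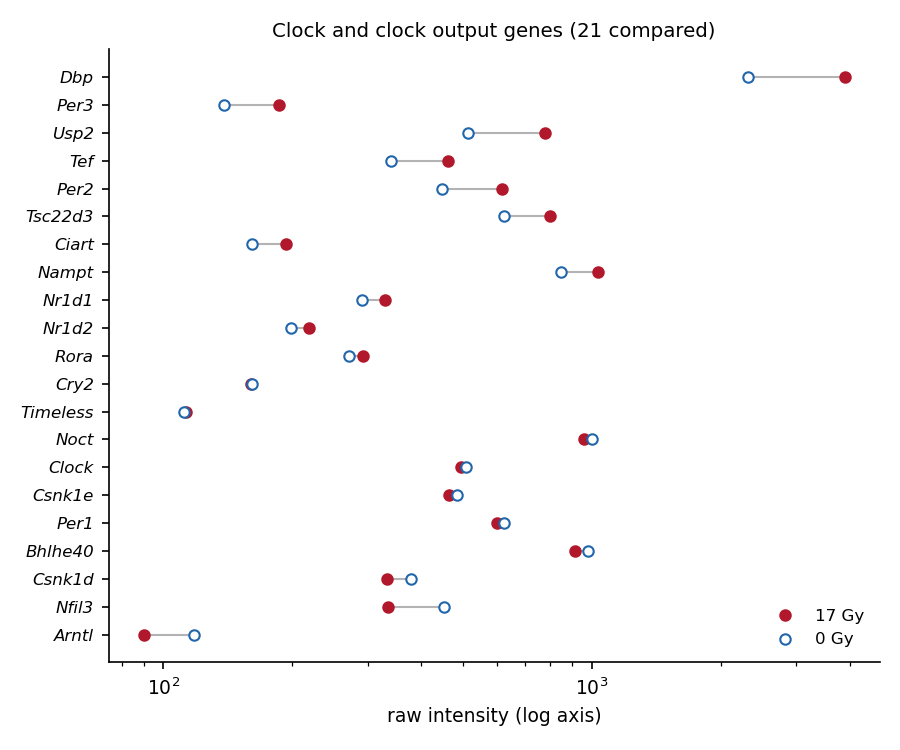
Raw intensity on a log axis at 17 Gy (filled red) and 0 Gy (open blue) for the 21 compared clock and clock output genes, sorted by log2 difference from the most positive at the top. Dbp is at the top, with 3890 at 17 Gy and 2316 at 0 Gy, and Arntl at the bottom, with 90 at 17 Gy and 118 at 0 Gy.

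The genes most closely tied to radiation damage lay on both sides. Of 31 p53 targets compared, 16 were higher and 15 lower by any amount, none 2-fold, with a median of 0.01. Cdkn1a, the p21 inhibitor of the cell cycle, read 597 at 17 Gy and 713 at 0 Gy (-0.37), with 0.05 and -0.48 at its other probes. Mdm2, the ligase that limits p53, read 719 at 17 Gy and 751 at 0 Gy (-0.14), with -0.17 at its other detected probe. Ccng1, cyclin G1, read 1185 at 17 Gy and 1191 at 0 Gy (-0.10), but its other probes gave 0.0 and 0.51. Trp53inp1, a p53-induced nuclear protein, read 167 at 17 Gy and 154 at 0 Gy (0.09). The largest differences of the list were those of Dcxr and Ddit4. Dcxr, a carbonyl reductase, read 271 at 17 Gy and 188 at 0 Gy (0.67, with 0.27 at its second probe). Ddit4, an inhibitor of mTORC1 that also responds to glucocorticoid, read 286 at 17 Gy and 394 at 0 Gy (-0.67). The median of 46 DNA repair genes was 0.07, with Msh6, a mismatch repair protein, with 532 at 17 Gy and 381 at 0 Gy (0.52, and 0.22 at its second probe). The median of 28 cell cycle genes was 0.13, or -0.01 with no detection filter, and the mitotic genes Cdk1 and Top2a were at background. Ccnd1, cyclin D1, read 355 at 17 Gy and 238 at 0 Gy (0.68), with 0.88 and 0.40 at its other probes. With a probe SD of 0.292, most of these single differences are of the size by which probes of a gene disagree.

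Other single genes were also lower at 17 Gy. Alcam, an adhesion molecule, read 107 at 17 Gy and 149 at 0 Gy (-1.31) and was detected on both arrays. Gldn, a matrix protein of nodes of Ranvier, was detected at 0 Gy alone, with 92 at 17 Gy and 127 at 0 Gy (-1.48, at least 1.92-fold lower). Sypl2, a protein of muscle membranes, read 98 at 17 Gy and 125 at 0 Gy (at least 1.86-fold lower), and 823 on the 8.5 Gy array that held the muscle transcripts. Ncan, a chondroitin sulphate proteoglycan, read 111 at 17 Gy and 153 at 0 Gy (-1.22). Of brighter genes, singled out after their values were seen, Plau, the urokinase activator of plasminogen, read 443 at 17 Gy and 840 at 0 Gy (-1.14), Vcl, vinculin of focal adhesions, 1311 at 17 Gy and 662 at 0 Gy (1.01), and Coq10b, a coenzyme Q-binding protein, 907 at 17 Gy and 470 at 0 Gy (1.03, with 0.45 at its second probe). In 8 genes, Babam2, Dbi, Dusp2, Grk6, Nup133, P2rx5, Pafah1b1 and Stk19, a dimmer probe was 2-fold apart while the brightest probe, by which the gene was read, lay on the other side. Dbi, for example, read 29248 at 17 Gy and 29652 at 0 Gy at its brightest probe (-0.06) and 121 at 17 Gy and 87 at 0 Gy at another (1.22).

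The 0 Gy array also shaped which genes were called. Of the 69 genes 2-fold higher, the 17 Gy array was the highest of the 4 in 52 and the 0 Gy array the lowest in 40. Of the 36 genes 2-fold lower, the 0 Gy array was the highest in 31 and the 17 Gy array the lowest in 20. The choice of genes by this difference favours these positions, so they are given as a description. For the secretoglobin, kallikrein and Prol1 genes called higher it was the 17 Gy array that differed from the other 3, whereas for Aoc3 and Plau it was the 0 Gy array. Col3a1, not called at 2-fold, was highest at 0 Gy with 545, but its other readings were spread, with 373, 265 and 218 at 17, 8.5 and 0.85 Gy.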

How the data were processed

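Per the labels' protocols, RNA came from fresh-frozen tissue and was extracted with a lipid tissue kit. Per the file headers, the deposited non-normalized table holds for each array an intensity and a detection p-value per probe. The deposited normalized table and value table hold intensity values on a linear scale, whose sorted columns were identical, which points to quantile normalization by the authors. The software behind both is not given in the sources used here. All 26512 probes were corrected for background and quantile-normalized over the 4 arrays by the neqc function (limma 3.58.1, R 4.3.3, offset 16, log2). The step was first run on simulated data, with known changes placed only in probes well above background. Recovery of changes in dim probes was thus not tested. Probes were named from the platform annotation, with 1719 left unnamed, and a gene was read from its brightest probe over the 4 arrays. Python 3.11.15 with pandas 2.3.3, numpy 2.4.6 and matplotlib 3.10.9 was used. The 44 gene lists, (1560 entries found by symbol, 12 by synonym, 177 without a probe) and the genes compared were chosen with earlier results of these data known. Genes named were drawn from the 15 most different in each direction, core list genes, the 6 further list members with the largest difference, list members 2-fold apart, and genes whose probes disagreed. Not every gene that met these rules is described, for example Twistnb, Fpr2 and Psmc6. No test was run, since each dose had 1 array. A fold threshold of 2 described size only. Alternatives were the authors' values, no background correction, scaling to the 75th percentile, the 2 arrays alone, an offset of 50, other detection filters, the mean of a gene's probes, bounds in place of fitted values, and a fold threshold of 3. The number of arrays limits the precision.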

Additional observations from a re-analysis of the deposited data

How the results depend on the processing

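The counts of genes 2-fold apart (69 higher and 36 lower at 17 Gy) depended on how dim probes were treated. They were 17 and 2 in the authors' normalized values, 14 and 2 without background correction and 19 and 4 with an offset of 50, which all shrink the differences of dim genes by construction. They were 27 and 14 for genes detected on both arrays, 45 and 15 with bounds in place of fitted values and 17 and 1 at a threshold of 3-fold. The share of higher genes among those called was 65.7% in the values reported, 89.5% in the authors' values, 87.5% without background correction, 82.6% with an offset of 50, 75% with bounds and 94.4% at 3-fold. With scaling to the 75th percentile they were 55 and 36, with the 2 arrays normalized alone 64 and 33, with the mean of a gene's probes 53 and 28, and with no detection filter or a detection p under 0.05 69 and 36. The medians of the MHC class II, macrophage and chemokine lists stayed above 0 and those of the endothelial, smooth muscle and collagen lists below 0 under all these settings. The class II median was 0.397 in the authors' values, 0.324 without background correction and 0.087 with no detection filter, and the chemokine median 0.029 with no detection filter. The medians of the neutrophil and clock lists changed sign, to -0.041 and -0.032 at a detection p under 0.05, and that of the p53 targets was -0.020 with scaling to the 75th percentile. No paired analysis was possible because each dose had 1 array. Brightness over background limits the dim genes, for which probes of a gene disagreed most.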
